A study of Balaenoptera physalus with 6 samples.

Results

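The subject is a set of 2017 CpG sites in introns of the fin whale that were lowly methylated in skin. They were chosen from the 32682 CpG sites that the authors' deposited table listed as different between the groups, by an intron gene name, no promoter or exon name and a mean level of the 6 samples under 30%. They made up 18.0% of the 11189 listed sites that lay in introns alone and 6.17% of all listed CpG sites. They lay on 211 scaffolds and in 1161 named genes, of which 102 carried only a LOC number and 85.0% were found among RefSeq's symbols for the species (assembly mBalPhy2.hap1.1). The sources used here do not name the assembly behind the positions. Positions are starts as the deposited table prints them, whether counted from 0 or 1 is not stated, and no sequence around them was used here.

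The fin whale (Balaenoptera physalus) samples were skin from the Mediterranean, 3 in the group labelled high in organochlorine contaminants (high OC) and 3 in the group labelled low (low OC). Age, sex and a separate animal per sample are not stated in the sources used here, and the high OC titles begin with BPT and the low OC titles with BPL, so what this prefix marks cannot be told apart from contaminant load. Reduced representation bisulfite sequencing (RRBS) cuts DNA with the enzyme MspI and converts unmethylated cytosine, and the methylation level of a site is the percentage of its reads in which the cytosine was protected. The design asked how methylation differed between the groups in relation to contaminant load.

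In mammals most CpG sites of gene bodies are methylated. Stretches without methylation inside introns include CpG islands, alternative promoters and enhancers, which transcription factors keep open, and regions marked by Polycomb proteins around developmental genes. Which of these, if any, the sites belonged to was not measured. Roles of genes are given below as known in human or mouse. Skin is a mixture of cells, and a low level can come from a few cells or from a part of the alleles in most cells, which bulk DNA cannot tell apart. Of the cell type markers looked up, 5 of 20 keratinocyte, 2 of 11 fibroblast, 1 of 7 endothelial, 2 of 10 immune and 1 of 5 nerve genes held such a site, as did 0 of 8 melanocyte and 0 of 6 adipocyte genes. A change in the mixture of cells was not tested.

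In the authors' deposited table no listed CpG site had a difference between group means under 10 percentage points or an unadjusted p-value over 0.05, both from these 6 samples, and the choice used the levels themselves. Differences between the groups are therefore given as a description, without a test. On the 1 stretch where unselected CpG sites were analysed, the authors called 2.00% of 651 sites, and no uncalled site there met both limits. There, 330 sites had a mean level under 30%, and 2 of these were called. Median coverage of the intron sites was 13 or 14 reads in every sample, and the least was 5 reads. At 14 reads, 7 methylated reads give a level of 50% with an exact (Clopper-Pearson) 95% interval of 23.0% to 77.0%, and 0 methylated reads allow a level of up to 21.4% (3 reads of 14). Such intervals and limits cover counting error only. Sequence differences between the samples at a site, which could also shift its level, were not tested.

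The sites were split between both directions, with 936 listed as higher and 1081 as lower in high OC skin. At the 936 higher sites the high OC samples averaged 24.6%, 24.8% and 23.7%, and the low OC samples 5.24%, 5.91% and 5.67%. The groups thus stood at 24.4% ± 0.581 (SD, n = 3) and 5.61% ± 0.341 (SD, n = 3). At the 1081 lower sites the high OC samples averaged 5.40%, 5.22% and 5.89%, and the low OC samples 22.5%, 25.5% and 23.4%, or 5.50% ± 0.350 (SD, n = 3) against 23.8% ± 1.59 (SD, n = 3). The groups did not overlap in either set, as the listing all but requires. It held for 99.4% of the single sites and for 99.5% of all listed CpG sites. The median difference was 16.3 points at higher and -16.0 points at lower sites. Its size, 16 points over both, compares with 20 points at the 9172 listed intron sites with a mean of at least 30%. Sites that the authors classed as strongly different numbered 114, or 5.65%, against 13.4% of all listed CpG sites, and a low mean leaves less room for a large difference.

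**Figure D1:**
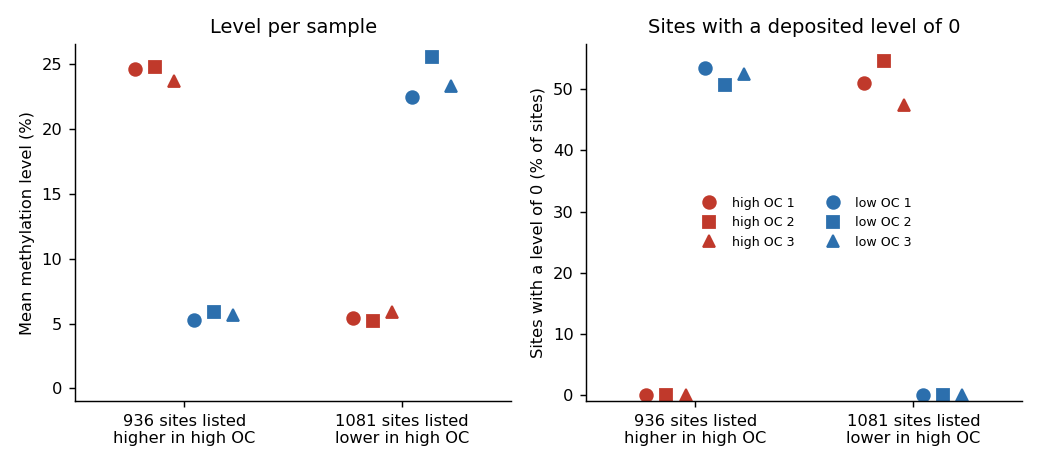
Mean level (left, in percent) and share of sites with a deposited level of 0 (right, in percent of sites) in each of the 6 samples, for the intron sites listed as higher and as lower in high OC; each point is 1 sample. The group with more methylation stood between 22.5% and 25.5% in each set, and the group with less between 5.22% and 5.91%.

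In the group with less methylation, many sites had no methylated reads. Of the higher sites, 269 (28.7%) had a level of 0 in all 3 low OC samples, and another 237 in 2 of them. Of the lower sites, 284 (26.3%) had a level of 0 in all 3 high OC samples, and another 287 in 2 of them. The 3 samples together had a median of 34 reads at the former sites and 35 reads at the latter, so that a count of 0 still allowed a level of up to 8.82% and 8.57%. None of the 936 higher sites was at 0 in a high OC sample and none of the 1081 lower sites was at 0 in a low OC sample. Levels of 50% or more were few, at 26 to 61 of the 2017 sites in a sample.

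Mean levels of the sites ran from 4.83% to 29.8%, with a median of 13.2%. The lower end follows from the listing, since a site near 0 in all samples cannot differ by 10 points. Close to the upper end, the BRINP2 site at 5928268 (scaffold NW_006725126_1, minus strand) had a mean of 29.8%, with 29%, 21% and 16% in high OC and 38%, 42% and 33% in low OC skin. The PISD site at 416685 (NW_006725687_1, minus strand) had the same mean, with 38%, 56% and 36% against 12%, 22% and 15%. Just outside stood the POU2F2 site at 578701 (NW_006725499_1, plus strand) with a mean of 30.0%, from 38%, 57% and 42% against 9%, 5% and 29%. The EHBP1L1 site at 18364061 (NW_006725687_1, plus strand) had that mean too, from 38%, 62% and 38% against 8%, 12% and 22%. The limit thus divides sites with alike levels, 7 of them at the highest mean inside and 11 at the lowest mean outside.

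Higher sites made up 46.4% of the lowly methylated intron sites (with sites counted as independent, the exact 95% interval was 44.2% to 48.6%), against 50.8% of all listed CpG sites. The 9172 more methylated intron sites were higher in 50.2%. Sites under the same limit elsewhere were higher more often, in 66.4% of 1521 promoter sites, 54.5% of 853 exon sites and 57.3% of 3213 sites with no gene name. Sites are not replicates and these shares were not tested against each other. Within the introns the share was 44.9% of 706 sites with a mean between 5% and 10%, 43.3% of 439 between 10% and 15%, 47.1% of 308 between 15% and 20%, 55.9% of 281 between 20% and 25% and 44.7% of 282 between 25% and 30%, with 1 site under 5%. No steady course with level was seen in these steps. The share moved with the weight of the groups in the limit. With a high OC sample left out of the mean it was 50.2% to 50.6%, with a low OC sample left out 42.6% to 42.7%, and 45.9% to 46.6% when both groups kept equal weight. Where every sample had 20 or more reads, it was 51.8% of 197 sites. Which direction held the majority thus depended on these choices.

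**Figure D2:**
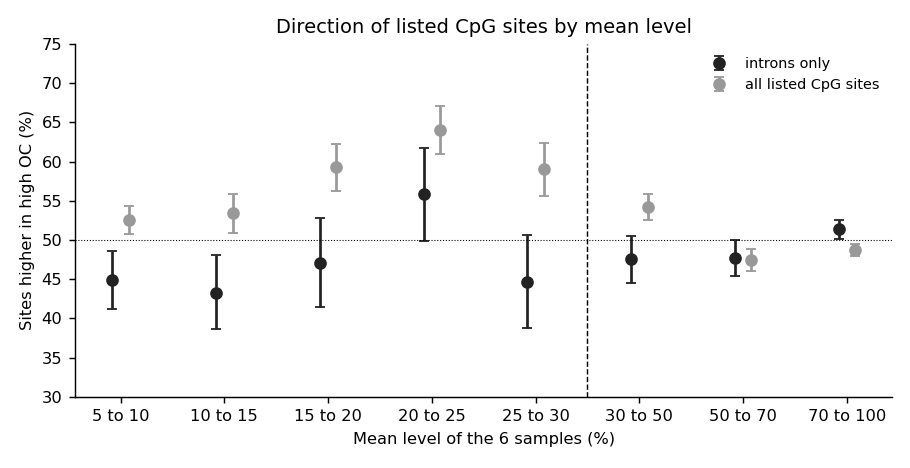
Share of listed CpG sites that were higher in high OC (vertical axis, percent) by the mean level of the 6 samples (horizontal axis, percent), for sites in introns alone (black) and for all listed CpG sites (grey); bars are exact 95% binomial intervals and the dashed line is the limit of 30%. Between 5% and 30% the intron shares lie between 43.3% and 55.9% and those of all listed sites between 52.6% and 64.1%; sites under 5%, 1 in introns and 2 in all, are not drawn. The intervals count sites as independent, which near sites are not, so they are too narrow. All listed sites include the intron sites, and the 2 sets were not tested against each other.

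The sites lay mostly alone. A further such site was within 100 bases of 675 (33.5%), and 1 or more listed CpG sites of another kind were within 100 bases of 259 (12.8%). Joined over gaps of at most 100 bases, the sites formed 269 clusters of at least 2, of which 68 held at least 3 and 17 at least 5. Among the more methylated intron sites, 29.7% had a further site of their kind within 100 bases. Clusters of at least 5 sites held 5.16% of the lowly and 2.82% of the more methylated intron sites, shares that were not tested. Of the 269 clusters, 107 held higher sites alone, 140 lower sites alone and 22 both. Neighbouring pairs within 100 bases had the same direction in 383 of 406 cases (94.3%), pairs further apart but within 1000 bases in 86 of 110 (78.2%) and pairs beyond that but within 10 kb in 75 of 132 (56.8%). At the more methylated intron sites these shares were 88.4%, 64.6% and 57.5%, and their 40 clusters of at least 5 sites were 31 higher, 6 lower and 3 mixed. The sets were not tested against each other. Near pairs rest in part on the same reads. Of 309 such pairs on 1 strand, 156 (50.5%) had the same coverage in all 6 samples. At 35 CpG both strands were listed, and 32 of them had the same direction. Where both strands counted among the sites, in 24 cases, their mean levels differed by a median of 2.83 points. A listed CHG site was within 100 bases of 47 sites and a listed CHH site within 100 bases of 58.

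The largest cluster lay in TLX1, which encodes a homeobox factor needed for the spleen. Its 11 sites within 145 bases (4452693 to 4452838 on NW_006728682_1, 7 to 55 reads) were all lower in high OC skin. High OC samples averaged 4%, 17.9% and 13.3% there, and low OC samples 34.4%, 41.7% and 43%. The groups stood at 11.7% ± 7.08 (SD, n = 3) and 39.7% ± 4.66 (SD, n = 3) and did not overlap, as the listing all but requires. Both strands took part, with 5 sites on the plus strand. It was part of a longer block: within 1000 bases lay 16 more listed sites, 15 of them intron sites over the limit, all lower, at 17.6% against 51.6%. The minus strand site 85 bases from the first of the cluster had 26, 20 and 24 reads in high OC and 15, 18 and 23 in low OC samples. The next, at 100 bases, had 52, 40 and 48 against 30, 36 and 45. Whether reads were counted 2 times at such sites was not tested.

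RGS12, which encodes a regulator of G protein signalling, held the next cluster. Its 8 minus strand sites within 45 bases (963371 to 963416 on NW_006725798_1, 6 to 28 reads) averaged 10%, 2.25% and 7.88% in high OC and 33%, 42.5% and 47.3% in low OC skin, or 6.71% ± 4 (SD, n = 3) against 40.9% ± 7.26 (SD, n = 3). Low OC replicate 1 had a level of 33% at each of the 8 sites and high OC replicate 1 had 10% at each, as sites on the same few reads do. The last site had 10, 11 and 14 reads in high OC and 9, 10 and 6 in low OC samples. The site before it had 20, 22 and 28 against 18, 20 and 12 reads. Whether reads were counted 2 times at such sites was not tested. The 6 other listed sites within 1000 bases were lower too, at 25.6% against 65.2%. All told, 14 sites of RGS12 were lowly methylated, 12 lower and 2 higher, which shared with SEPT9 the largest number of any gene.

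EMX2 and DUSP27 held the largest clusters in the other direction. EMX2, a homeobox gene of the cerebral cortex and the urogenital tract, had 7 sites within 293 bases (9819597 to 9819890 on NW_006725909_1, 6 to 64 reads). They averaged 23.4%, 20.7% and 23.6% in high OC and 3.43%, 5.43% and 8.14% in low OC skin, or 22.6% ± 1.61 (SD, n = 3) against 5.67% ± 2.37 (SD, n = 3). With 2 sites close by, EMX2 had 9 such sites, all higher. DUSP27, a dual specificity phosphatase gene of muscle, had 7 sites within 170 bases (1082278 to 1082448 on NW_006725799_1, 7 to 48 reads) at 35.7%, 34.4% and 30.7% against 8.57%, 6.29% and 6.71%, or 33.6% ± 2.60 (SD, n = 3) against 7.19% ± 1.21 (SD, n = 3). Each of these clusters was covered on both strands. The groups did not overlap, as the listing all but requires where all sites share a direction.

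**Figure D3:**
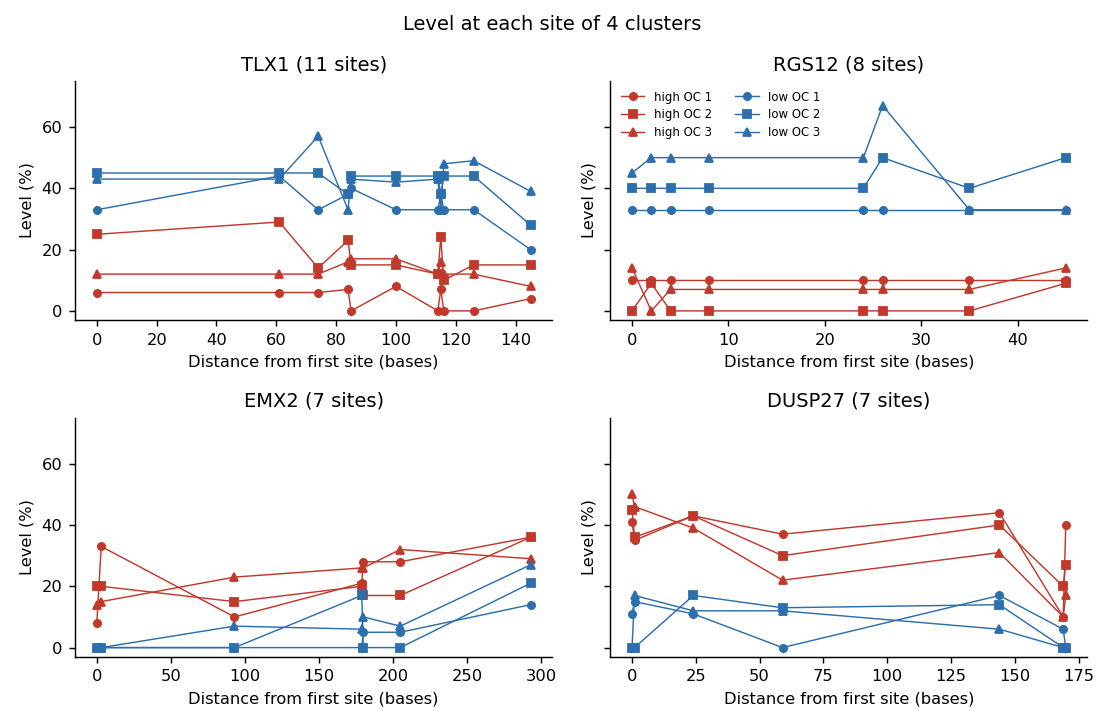
Level (percent) of each site in the 4 largest clusters against the distance from the first site (bases), with 1 line per sample. In TLX1 and RGS12 the 3 low OC samples run above the 3 high OC samples; in EMX2 and DUSP27 the order is the other way.

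KCNQ1, a potassium channel gene that lies in an imprinted domain in human and mouse, had 7 minus strand sites within 45 bases (23256229 to 23256274 on NW_006725687_1). Coverage was 17 to 27 reads at 4 of them and 33 to 54 reads, about 2 times as many in each sample, at the other 3, with the same or nearly the same levels. Whether reads were counted 2 times at such sites was not tested. High OC samples averaged 0%, 0% and 2.86%, and low OC samples 9.57%, 13.7% and 18.3%, or 0.952% ± 1.65 (SD, n = 3) against 13.9% ± 4.36 (SD, n = 3). No other listed CpG site lay within 1000 bases. INPP5F, part of which is imprinted in mouse and human, had 5 sites within 45 bases (11785219 to 11785264 on NW_006725909_1, 13 to 46 reads), all lower, at 22%, 24% and 15.4% against 32%, 38% and 33.2%.

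GNAS, an imprinted gene of the stimulatory G protein, held a cluster in which the strands went apart. Of its 6 sites within 153 bases (4376010 to 4376163 on NW_006728129_1), the 2 on the minus strand were lower, at 12.5%, 8% and 15.5% in high OC and 70%, 38% and 33% in low OC skin. The 4 on the plus strand were higher, at 36%, 53.5% and 50% against 20%, 10% and 0%. Coverage was 8 to 18 reads on the minus strand and 5 to 7 reads on the plus strand. Of the cluster means in the 12 clusters, those of GNAS alone overlapped between groups, since low OC replicate 1 stood at 36.7% and high OC replicate 1 at 28.2%. The other clusters each held a single direction, and the groups were apart at 99.5% of all listed CpG sites. Within 1000 bases lay 9 more listed intron sites over the limit, 4 higher and 5 lower.

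Other clusters stood without a listed neighbour within 1000 bases. ANK1, the ankyrin of red cells, had 6 sites (556873 to 557039 on NW_006727098_1, 5 to 20 reads) at 28.8%, 25% and 22.5% in high OC against 2.5%, 0% and 5% in low OC skin. MAD1L1, a gene of the mitotic spindle checkpoint, had 6 (1330040 to 1330099 on NW_006726076_1, 13 to 46 reads) at 14.3%, 18.8% and 26% against 1%, 1.33% and 3.17%. EGFL7, which endothelial cells secrete, had 6 in the other direction (10048325 to 10048374 on NW_006732900_1, 6 to 29 reads), at 0%, 1.17% and 0% against 17%, 19.3% and 10.5%. ABR had 5 higher sites (10850539 to 10850669 on NW_006727575_1, 6 to 17 reads) at 30%, 31.4% and 25.4% against 8.2%, 6.8% and 8.4%. In each of these the groups did not overlap, which again the listing all but requires. The MAD1L1 site 35 bases from the first had 31, 46 and 32 reads in high OC and 32, 26 and 44 in low OC samples. The next had 16, 23 and 16 against 16, 13 and 22. The EGFL7 site 22 bases from the first had 22, 29 and 14 against 24, 25 and 22 reads. The one before it had 13, 14 and 6 against 12, 13 and 12. Whether reads were counted 2 times at such sites was not tested.

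An intron shared by SBSN, the suprabasin of epidermal differentiation, and GAPDHS, a glycolytic enzyme of sperm, held 5 higher sites (5639026 to 5639150 on NW_006724904_1). They averaged 22%, 36.4% and 32% in high OC and 6.8%, 8.4% and 0% in low OC skin, at only 5 to 9 reads. INPP5A, an inositol phosphate phosphatase gene, had 5 higher sites (22735895 to 22735953 on NW_006725909_1, 8 to 47 reads) at 12%, 11.2% and 18.2% against 0%, 1.2% and 0%. A listed intron site near it was highly methylated and went the other way, at 89.7% against 100%. The INPP5A site 26 bases from the first had 16, 47 and 26 reads in high OC and 30, 36 and 16 in low OC samples. The next had 8, 24 and 13 against 15, 18 and 8. Whether reads were counted 2 times at such sites was not tested. Of the 17 clusters with at least 5 sites, 9 were higher throughout, 7 lower throughout and 1, in GNAS, mixed.

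**Figure D4:**
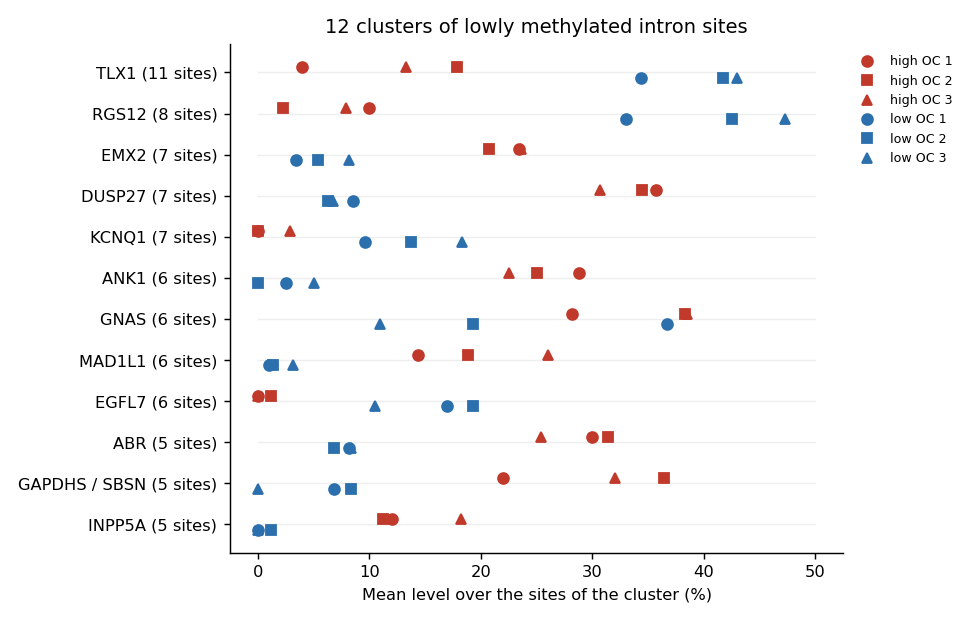
Mean level (percent) over the sites of each of the 12 clusters with the most lowly methylated intron sites, 1 point per sample, high OC in red and low OC in blue, with the gene and its number of sites on the vertical axis. The groups are apart in 11 clusters, as the listing all but requires where all sites of a cluster share a direction. They overlap in GNAS, whose sites went both ways.

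Among single sites covered by 10 or more reads per sample, the widest gap in favour of high OC stood in CACNA2D4, an auxiliary subunit gene of calcium channels. The site at 1466362 (NW_006726543_1, plus strand) had 50%, 50% and 54% in high OC skin and 0% in all low OC samples, whose 76 reads together allowed up to 3.95%. Coverage was even in all 6 samples at this site, as at 6 of the 12 single sites named (CACNA2D4, H6PD, CDH4, VEGFA, LOC103019228 and NTN1). Among all 2017 sites coverage was even in all 6 samples at 8.87%, and why the named sites had more was not tested. Were each molecule counted 2 times, the limit at the CACNA2D4 site would be 7.89%. The minimum of 10 reads would then stand for fewer molecules. A CHG site 2 bases on, on the minus strand, was listed in the other direction, at 36%, 20% and 40% against 100%, 100% and 83%. Whether the samples differed in sequence at these positions was not tested. H6PD, an enzyme gene of NADPH supply in the endoplasmic reticulum, had 62%, 25% and 71% against 11%, 8% and 0% at 3195306 (NW_006725599_1, minus strand). GSAP, a gene of the gamma-secretase pathway, had 50%, 73% and 32% against 9%, 0% and 15% at 4648050 (NW_006728571_1, minus strand). These high OC values spread widely, with SDs of 24.4 and 20.6 points.

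CDH4, which encodes R-cadherin, had 43%, 55% and 53% in high OC against 7%, 13% and 6% in low OC skin at 1962102 (NW_006728129_1, plus strand). Listed sites 25 bases before and 26 bases after it were higher too, at 31.3% against 8.67% and at 92.3% against 51.7%. HOXD3, a homeobox gene of body patterning, had 44%, 22% and 62% against 0%, 4% and 0% at 10100472 (NW_006730567_1, minus strand). The DUSP27 site at 1082278, the first of its cluster, had 41%, 45% and 50% against 11%, 0% and 0%.

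In the other direction the widest gap stood in VEGFA, the vascular growth factor. Its site at 467201 (NW_006732678_1, plus strand) was at 0% in the high OC samples, whose 60 reads together allowed up to 5.00%, or 10% if counted 2 times, and at 88%, 40% and 42% in low OC skin. ADSSL1, an enzyme gene of purine synthesis in muscle, had 6%, 0% and 0% against 20%, 67% and 82% at 2119124 (NW_006726265_1, plus strand), and the cytosine on the opposite strand had 0% in each high OC sample against 17%, 43% and 30%. LOC103019228, an uncharacterised gene, had 0% in each high OC sample (106 reads, up to 2.83%, or 5.66% if counted 2 times) against 57%, 41% and 40% at 1188041 (NW_006726665_1, plus strand). Its opposite cytosine had 0% against 91%, 56% and 55%, while a site 3 bases on was higher in high OC, at 89.0% against 68.7%. Both strands of the CpG thus had the same direction in ADSSL1 and in LOC103019228.

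The RGS12 site at 962822 (NW_006725798_1, minus strand) had 14%, 0% and 0% in high OC against 54%, 58% and 40% in low OC skin, and 5 listed neighbours within 100 bases were lower too. NTN1, the axon guidance cue netrin 1, had 0%, 8% and 9% against 33%, 43% and 57% at 767801 (NW_006725366_1, plus strand). LHPP, a phosphatase gene, had 15%, 7% and 8% against 46%, 69% and 25% at 15648894 (NW_006725909_1, minus strand), and a site 21 bases before it had 0% in each high OC sample against 23%, 36% and 33%.

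Most genes held a single site: 750 of the 1161 had 1 and 63 had at least 5. Of the 411 genes with at least 2 sites, 107 had higher sites alone, 138 lower sites alone and 166 both. SEPT9, a septin of the cytoskeleton, had 13 lower and 1 higher over 123577 bases, at 4.71%, 7.29% and 6.29% in high OC against 19.1%, 26.4% and 22.1% in low OC skin. RABL6, a RAB-like GTPase, had 13 sites in 8 clusters over 3277 bases, all higher, at 23.1%, 23.5% and 21.9% against 1.85%, 4.08% and 3%. All 13 had the same direction, while the listed intron sites of RABL6 over the limit were 5 higher and 2 lower. GSE1, linked to a histone deacetylase complex, had 9 lower and 2 higher sites over 351628 bases.

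Other genes with many sites held both directions. CACNA1C, a calcium channel gene, had 7 higher and 3 lower of these sites in 7 clusters over 361296 bases, while its intron sites over the limit were 23 higher and 78 lower. PTPRN2, whose phosphatase-like product sits on secretory granules, had 8 higher and 1 lower, at 29.2%, 27% and 33.8% against 4%, 4.56% and 6.22%, and 49 higher and 49 lower over the limit. MAD1L1 had 6 higher and 5 lower, and ATXN7L1, a relative of the ataxin 7 gene, 4 higher and 5 lower. In CACNA1C and PTPRN2 the lowly methylated sites leaned to high OC, and whether their direction differed from the other sites of the gene was not tested. Of the 1161 genes, 723 also had a listed intron site over the limit, 437 a listed exon site outside promoters, 182 a listed promoter site and 296 no other listed CpG site.

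Across the 14 gene lists, counts are set beside those of all 1161 genes, of which 498 leaned higher (more higher than lower sites), 595 lower and 68 neither. Of the 2017 sites, 936 (46.4%) were higher and 1081 lower. The median difference was -10.7 points over the 2017 sites and 10 over all listed CpG sites. Since no listed site differs by less than about 10 points, the sign of such a median tells which direction had more sites. None of the lists was tested.

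Homeobox genes, the longest list, held the most sites, and both lists of developmental transcription factors held more higher than lower sites. Higher sites made up 61.0% in the homeobox list and 72.2% in the other, against 46.4% of the 2017 sites. Of 117 homeobox genes, which pattern the body and its organs, 74 had a listed CpG site anywhere. Among them, 29 held 77 of the sites, 47 higher and 30 lower, with a median difference of 12 points. Of these 29 genes, 19 leaned higher and 8 lower. TLX1 alone held 12 of the lower sites, and EMX2 alone 9 of the higher sites. HOXD3 had 5 higher and 0 lower, at 34.6%, 25% and 38% in high OC against 2.2%, 7% and 8.2% in low OC skin. IRX2, an Iroquois factor, had 0 and 5, at 5.4%, 7% and 7.6% against 26.4%, 18.4% and 21.8%. The listed intron sites over the limit were 3 higher and 0 lower in HOXD3, and IRX2 had 0 and 0. Singled out after their counts were seen, the LHX genes together had 9 higher and 2 lower sites and the PAX genes 8 and 2. Among 82 SOX, forkhead, T-box, GATA and bHLH genes, 9 held 13 higher and 5 lower sites with a median of 16.2 points. Of these 9 genes, 6 leaned higher and 3 lower. TBX5, a factor of heart and forelimb, had 4 and 2, and TCF3, a partner of tissue-specific bHLH factors, 4 and 0.

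Signalling and metabolic genes held more lower sites, as did the 2017 sites as a whole. Higher sites made up 27.6% in the signalling list and 27.3% in the lipid list, against 46.4% of the 2017 sites. Of 88 WNT, Notch, Hedgehog, BMP and TGF-beta genes, 13 held 8 higher and 21 lower sites with a median of -13.7 points. Of these 13 genes, 3 leaned higher, 9 lower and 1 neither. BMP7, a bone morphogenetic protein, had 0 higher and 4 lower, at 3.75%, 8% and 9.75% in high OC against 22.8%, 22.8% and 26% in low OC skin. SKI, a repressor of TGF-beta signalling, had 2 and 4, the WNT ligand gene WNT7B 2 and 2, and SFRP1, a secreted WNT antagonist, 0 and 2. The listed intron sites over the limit were 2 higher and 0 lower in BMP7 and 6 and 1 in SKI. Of 40 lipid, lipoprotein and insulin response genes, 9 held 3 higher and 8 lower sites with a median of -14.3 points, among them PRDM16, a regulator of brown fat, with 0 and 3. Of these 9 genes, 3 leaned higher and 6 lower.

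Genes that respond to contaminants and hormones held sites in both directions. Higher sites made up 61.5% in the xenobiotic and 40% in the steroid list, against 46.4% of the 2017 sites. By gene, 3 leaned higher and 1 lower in the former, and 2 and 6 in the latter. Of 32 dioxin receptor and xenobiotic genes, 7 had a listed CpG site anywhere and 4 held 13 of the lowly methylated intron sites, 8 higher and 5 lower, with a median of 10.7 points. AHRR, which represses the dioxin receptor, had 4 higher and 1 lower, at 15.2%, 18.2% and 17.4% in high OC against 6%, 11.4% and 8.6% in low OC skin. ARNT2, a partner of that receptor family, had 2 and 1, RXRA, the shared partner of many nuclear receptors, 1 and 3, and POR, the electron donor of cytochrome P450 enzymes, 1 and 0. Of 41 steroid, thyroid and retinoid genes, 23 had a listed CpG site anywhere and 8 held 6 higher and 9 lower sites with a median of -12.7 points. NR5A2, a nuclear receptor of steroid and bile acid synthesis, had 4 and 0, at 19.5%, 22.8% and 20.8% against 8%, 7% and 5.5%, and RARA, a retinoic acid receptor, 0 and 3. The listed intron sites over the limit went the other way in NR5A2, with 0 higher and 6 lower. In AHRR they were 4 higher and 1 lower.

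Neuronal and channel genes were close to even, at 54% and 45.5% higher sites, against 46.4% of the 2017 sites. By gene, 11 leaned higher, 10 lower and 2 neither in the neuronal list, and 6, 6 and 3 in the channel list. Of 66 neuronal and axon guidance genes, 23 held 27 higher and 23 lower sites with a median of 12 points. SHANK2, a scaffold of synapses, had 5 and 0, at 33.6%, 26.6% and 32.2% in high OC against 5.4%, 13.6% and 10.2% in low OC skin, and the receptor phosphatase gene PTPRS had 0 and 6, at 0%, 1.67% and 7% against 25%, 29.5% and 15.3%. The listed intron sites over the limit were 17 higher and 31 lower in SHANK2 and 4 and 4 in PTPRS. Of 70 potassium, calcium and glutamate channel genes, 15 held 20 higher and 24 lower sites with a median of -11.2 points. GRIN1, the obligatory subunit of NMDA receptors, had 0 and 4 within 38 bases, at 2%, 6.5% and 8.25% against 15.5%, 21.5% and 20.5%. Its listed intron sites over the limit were 3 higher and 0 lower.

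The remaining lists held 5 to 23 sites each. Counts were as small in the lipid, xenobiotic and steroid lists above, with 11, 13 and 15 sites. The remaining lists had 34.8% to 44.4% higher sites, against 46.4% of the 2017 sites. By gene, 3 leaned higher and 4 lower in the keratinocyte list, and 3 and 5 in both the fibroblast and the chromatin list. It was 4 and 4 in the immune, 2 and 3 in the repair and 3 and 3 in the imprinted list. Of 39 epidermal keratinocyte genes, 8 held 7 higher and 9 lower sites with a median of -10.2 points, with the desmosome gene PKP1 at 1 and 3 and the cornified envelope gene EVPL at 2 and 0. Of 48 fibroblast and matrix genes, 8 held 4 and 5 with a median of -10.3 points. Of 60 chromatin and DNA methylation genes, 8 held 6 and 8 with a median of -10.3 points: DOT1L, a histone methyltransferase, had 0 and 4, at 3.25%, 0% and 2.5% in high OC against 12.5%, 15.8% and 14.2% in low OC skin, while DNMT3L and UHRF1, cofactors of DNA methyltransferases, had 2 and 0 each. Of 61 immune signalling genes, 9 held 7 and 9 with a median of -10.5 points, and NFATC1, a factor of calcium signalling in lymphocytes, was at 0% in each high OC sample at its 4 sites against 14.5%, 11.8% and 8%. The listed intron sites over the limit were 5 higher and 1 lower in NFATC1 and 1 and 5 in DOT1L. Of 38 DNA repair and tumour suppressor genes, 5 held 2 and 3 with a median of -11.0 points. Of 26 imprinted genes, 6 held 8 and 15 with a median of -11.7 points, most of them in KCNQ1 (1 and 7), GNAS (5 and 2) and INPP5F (0 and 5). The listed intron sites over the limit were 30 higher and 16 lower in KCNQ1 and 5 and 7 in GNAS, and INPP5F had 0 and 0.

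**Figure D5:**
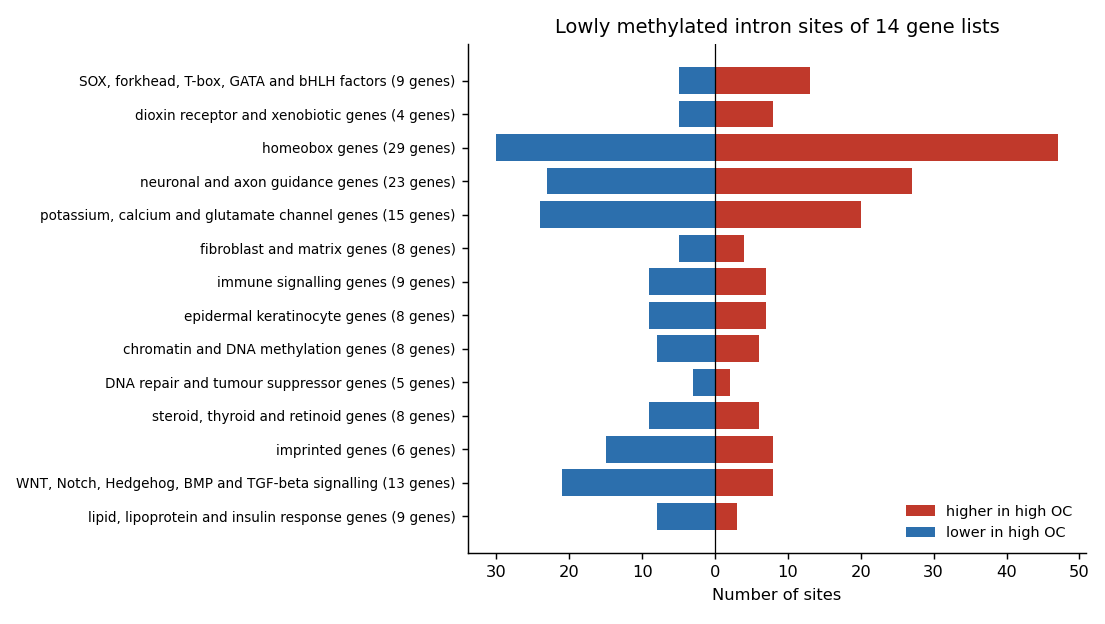
Number of lowly methylated intron sites (horizontal axis) that were higher (red, to the right) or lower (blue, to the left) in high OC skin in each of 14 gene lists, with the number of genes that held such a site in brackets. Homeobox genes have 47 higher and 30 lower sites, and WNT, Notch, Hedgehog, BMP and TGF-beta genes 8 and 21. Of all 2017 sites, 936 were higher and 1081 lower.

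Coverage was no term of the rule and was tested, although the authors' p-value, and so the listing, can depend on it. The median coverage of the sites was 14 reads in each high OC sample and 13 reads in each low OC sample, a difference that reached the smallest p the design allows (exact two-sided permutation test, p = 0.1, n = 3 against 3). Coverage thus moved with the groups by 1 read, and its part in the listed differences was not tested. At the more methylated intron sites, medians were 13, 11 and 13 reads in high OC and 11, 12 and 12 in low OC samples. The lowly methylated sites were covered more deeply in 6 of 6 samples, by 1.5 reads on average (exact two-sided sign-flip permutation test over samples, p = 0.0312, the smallest p that 6 samples allow, n = 6). Coverages were even in all 6 samples at 8.87% of the lowly and 12.4% of the more methylated intron sites.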

How the data were processed

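RRBS of fin whale skin was analysed in 6 samples, 3 high OC and 3 low OC. The submitters' processing notes name Bismark, a bisulfite aligner and methylation caller. No version, build, annotation or read filter is stated in the sources used here. Methylation levels were deposited by the authors as a fraction with 2 decimals. Coverage was deposited as a read count per site, per the file headers. The signed difference of group means and an unadjusted p-value per site are the authors' deposited columns. Here levels were printed as percent, and the rule was applied to sums of the rounded levels. The lists hold sites that differed, so intron sites that did not differ were not analysed here, and the unselected sites cover 1 scaffold stretch. Members and gene lists were chosen with earlier results of these data known.

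Genes to name were the 12 clusters with the most sites (gaps of at most 100 bases), 6 single sites per direction with at least 10 reads in each sample, the 10 genes with the most sites, up to 20 listed genes with at least 3 sites and 2 sites on each side of the limit, transfer RNA names left out. Of these, 1 listed gene is not reported here. Other genes named in the list paragraphs, INPP5F's cluster and the LHX and PAX counts were chosen after values were seen. A cell with several gene names, at 19 sites, was counted for each. The labels do not state that each sample is another animal, so p-values measure the spread between these samples. Molecular identifiers are not mentioned, so reads may not be independent molecules. Python 3.11.15 with numpy 2.4.6, pandas 2.3.3 and scipy 1.17.1 was used, and the clustering and permutation code was tested on simulated data. Alternatives were other limits on the mean level, coverage minimums of 10 and 20 reads, a mean weighted by coverage, 1 site per 1 kb, other gaps and each sample left out.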

Additional observations from a re-analysis of the deposited data

How the results depend on the processing

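None of the 103 alternative values run reversed the sign of a difference. For the median differences this was all but fixed in advance, since sites were first split by direction. Counts and shares have no sign, so only the coverage differences could readily have reversed. The majority of sites changed from lower to higher with at least 20 reads and without any 1 high OC sample. The number of sites was 908 with at least 10 and 197 with at least 20 reads in each sample, and 1994 to 2060 without 1 sample. The share of higher sites was 51.8% with at least 20 reads and ran from 42.6% to 50.6% without 1 sample. This follows from the limit, which then weights the groups unequally: with equal weights, an alternative added after the data were seen, it ran from 45.9% to 46.6%. The median difference at higher sites was 14.7 points with a limit of 20%, 18.0 with a limit of 40%, 15.3 with at least 10 and 15 with at least 20 reads, and 15.7 to 17.3 without 1 sample. At lower sites it was -14.3, -17.8 and, with at least 20 reads, -13.3 points, and -17.2 to -15.2 without 1 sample. Clusters of at least 5 sites numbered 7 with at least 10 reads and 8 with a limit of 20%. The coverage difference between intron sets was 1.2 to 1.6 reads without 1 sample (exact sign-flip permutation p = 0.0625, the smallest that 5 samples allow). Other alternatives stayed within the spread between samples or 1.5 times the count. No paired analysis was possible because the labels give no replicate number that the groups share. At this depth a single level moves in steps of several points.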
